A study of Mus musculus with 28 samples.

Results

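The BCL2 family genes of T cells were described across 10 groups of mouse CD4+ and CD8+ T cells that differed in how long they had been stimulated. Members were the probe sets (short oligonucleotide sets that each report on 1 transcript region) that the platform annotation assigned to Bcl2, Bcl2l1, Mcl1, Bcl2l11, Pmaip1, Bak1 or Bid. The annotation gave 21 such probe sets for 7 of the 8 genes asked for, among 20380 probe sets with a single gene symbol, which stand for 12393 genes. Mcl1 had 6 probe sets, Bcl2l11 had 5, Bcl2l1 had 4, Bak1 and Bid had 2 each, and Bcl2 and Pmaip1 had 1 each. Bax was not analysed here. All 21 were tested, since no filter on low signals was set.

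The BCL2 family decides whether the outer mitochondrial membrane stays closed. Bcl2, Bcl2l1 (BCL-XL) and Mcl1 encode guardians that keep it closed. The BH3-only proteins BIM, encoded by Bcl2l11, BID and NOXA, encoded by Pmaip1, bind the guardians, and BIM and BID can also activate the effector BAK directly, whereas NOXA binds chiefly MCL1. In mouse T cells BCL2 and MCL1 keep resting cells alive with cytokine input, BCL-XL is induced by costimulation, and BIM is needed for the loss of T cells after a response.

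CD8+ cells carried the OT1 T cell receptor and CD4+ cells the AND receptor, all on the C57BL/6N background, so that cell type, receptor and antigen cannot be told apart. All cells spent 2 days in culture with 5 ng/ml IL7, a cytokine that sustains naive T cells. Stimulated cells lay in wells coated with antibodies to CD3 and CD28, coated at 10 µg/ml, and unstimulated cells in plain wells. On day 2 there were 4 groups of 3 arrays: CD8 stimulated, CD8 unstimulated, CD4 stimulated and CD4 unstimulated. For day 5, cells were transferred for a further 3 days. Continuous cells had been stimulated in culture and then met their antigen in a host expressing it (dtg-O or dtg-M, names that the labels do not explain further). Transient cells had been stimulated in culture and then rested in a host without antigen, and unstimulated cells went from plain wells to such a host. Day 5 had 3 arrays each of CD8 continuous, CD8 transient, CD8 unstimulated and CD4 continuous cells, and 2 arrays each of CD4 transient and CD4 unstimulated cells. The series describes replicates as biologically independent, and the p-values measure the spread between them. In sorted cells, fewer cells of a type and less RNA per cell cannot be told apart.

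Promoters of 3 genes with a probe set called between CD8 continuous and transient cells, a guardian and a pair of BH3-only genes, are shown as RefSeq gives them for GRCm38.p6, over the 250 bases before the start. They are read 5′ to 3′ on the gene's strand, with capitals for each GGGCGG on either strand (the SP1 box) and, in Bcl2l11, for the FOXO letters TGTTTAC on either strand.
Bcl2, chr1:106714291-106714540, minus strand: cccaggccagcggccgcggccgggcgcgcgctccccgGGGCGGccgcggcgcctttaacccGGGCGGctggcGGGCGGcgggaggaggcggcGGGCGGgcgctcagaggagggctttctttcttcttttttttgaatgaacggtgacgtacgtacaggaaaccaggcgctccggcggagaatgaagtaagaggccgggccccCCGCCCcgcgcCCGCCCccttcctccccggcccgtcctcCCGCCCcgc
Bcl2l11, chr2:128125788-128126037, plus strand: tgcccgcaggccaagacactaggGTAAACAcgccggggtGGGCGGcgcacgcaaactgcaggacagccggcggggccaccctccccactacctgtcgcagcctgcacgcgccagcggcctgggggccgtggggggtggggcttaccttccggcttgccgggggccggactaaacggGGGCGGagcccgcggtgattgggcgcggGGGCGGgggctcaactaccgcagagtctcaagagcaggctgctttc
Bid, chr6:120916825-120917074, minus strand: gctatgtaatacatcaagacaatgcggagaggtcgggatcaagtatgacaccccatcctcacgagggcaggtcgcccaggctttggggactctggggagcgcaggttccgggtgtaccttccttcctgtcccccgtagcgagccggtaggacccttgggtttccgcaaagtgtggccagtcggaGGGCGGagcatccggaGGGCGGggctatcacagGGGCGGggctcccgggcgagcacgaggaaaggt

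The Bcl2 window held 36 CpG dinucleotides, the Bcl2l11 window 24 and the Bid window 18, against a median of 6 over 32851 mouse promoter windows. GGGCGG was found 7 times before Bcl2 and 3 times before both Bcl2l11 and Bid, and 32.7% of all windows held it at least once. FOXO proteins are transcription factors that growth factor signalling keeps out of the nucleus, and Bcl2l11 is one of their known targets. The FOXO letters stood at positions 24 to 30 of the Bcl2l11 window shown and were in 3.17% of all windows. RefSeq gives Bcl2l11 a second window, chr2:128127325-128127574, which held 30 CpG dinucleotides, GGGCGG 2 times and no FOXO letters. They were in none of the other 8 member windows, and the windows matched cover 6 of the 7 genes. Other letters searched on both strands were TTCNNNGAA (STAT, in 7.02% of all windows), TGANTCA (AP-1, 6.75%), TGACGTCA (CRE, 1.55%), GCGTGGGCG (EGR, 0.536%), TATAAA (the core promoter box, 12.4%) and CACGTG (E-box, 6.02%), and none of these was found in a member window. A match describes letters and is not evidence of binding.

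Several array features touch the results and are given first. Cd3d, a T cell receptor subunit, was between 11.72 and 13.48 on all arrays. T cell markers, 7 of 8 measured, were less even. Their mean ran from 9.45 on a CD8 unstimulated day 2 array to 12.26 on a CD8 transient array. Of the 7, 3 were called lower in CD4 transient and 4 higher in CD8 transient cells, each against day 5 unstimulated cells. There 22.7% and 31.3% of all genes were called. In each cell type the third unstimulated day 2 array stood apart, with medians of 4.97 for the one labelled CD8 and 4.83 for the one labelled CD4, while all others lay between 6.29 and 6.53. Their Cd8a and Cd4 signals went against their labels: the array labelled CD8 had 5.78 for Cd8a and 7.02 for Cd4, and the array labelled CD4 had 9.88 for Cd8a and 5.40 for Cd4. Day 2 results are therefore given with and without these 2 arrays. The beta-actin 3′ minus 5′ difference, which grows as RNA or its amplified copy shortens, differed between groups. On day 2 it was 1.38 to 1.69 in CD8 stimulated against 2.28 to 4.27 in CD8 unstimulated arrays, and 1.11 to 1.39 in CD4 stimulated against 3.37 to 4.30 in CD4 unstimulated arrays, so it moved with stimulation in both cell types without overlap. On day 5 it was 0.31 to 0.56 in CD8 continuous, 0.66 to 1.02 in CD8 transient, 1.92 to 2.44 in CD8 unstimulated, 0.40 to 0.62 in CD4 continuous, 2.42 to 2.73 in CD4 transient and 0.67 to 0.98 in CD4 unstimulated arrays. With this difference as a covariate, in a fit added after the data were seen, 15 of the members' 93 calls held, 72 were lost and 6 changed sign. None of the calls that compare CD4 transient or CD8 unstimulated cells with another day 5 group held in that fit, where group and covariate can hardly be told apart. The same limit holds on day 2, where the ranges of stimulated and unstimulated arrays did not overlap and adjusted values are extrapolated. The closest ranges within a cell type on day 5 were CD8 continuous with CD8 transient, and CD4 continuous with CD4 unstimulated. B cell markers, 9 of 10 measured, averaged 7.77 and 9.43 in the CD4 transient arrays against 5.08 and 5.83 in CD4 unstimulated arrays. They averaged 5.43 to 7.51 in the CD8 unstimulated arrays of day 5. The mean of 9 myeloid markers spread widely within day 5 groups. It ran from 7.18 to 9.58 in CD4 transient, 6.06 to 8.34 in CD4 continuous and 6.76 to 8.16 in CD4 unstimulated arrays. In CD8 cells it ran from 6.16 to 8.31 in transient, 5.95 to 9.68 in unstimulated and 6.28 to 7.54 in continuous arrays. The CD4 transient arrays also had less Cd4, 7.68 and 7.88 against 9.60 and 9.22. Levels are log2 signals throughout, and differences are log2 fold changes from limma, adjusted with the Benjamini-Hochberg method over all 20380 probe sets and called below 0.05.

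Bcl2, the guardian of resting T cells, was on day 5 lowest under continuous antigen in both cell types. Its only probe set (1422938_at) read 6.30, 6.84 and 7.15 in CD8 continuous, 7.37, 7.72 and 7.45 in CD8 transient and 8.13, 8.48 and 8.13 in CD8 unstimulated cells. It read 7.40, 7.05 and 6.51 in CD4 continuous, 8.18 and 8.36 in CD4 transient and 8.79 and 8.48 in CD4 unstimulated cells. Within each cell type the 3 groups did not overlap and stood in the same order. Bcl2 fell by 1.49 ± 0.23 (SE) in CD8 continuous against unstimulated cells (adjusted p = 0.000153) and by 1.65 ± 0.26 in CD4 continuous against unstimulated cells (adjusted p = 0.000596). Against transient cells it fell by 0.75 ± 0.23 in CD8 continuous (adjusted p = 0.0279) and by 1.28 ± 0.26 in CD4 continuous cells (adjusted p = 0.00169).

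The CD4 fall of Bcl2 against unstimulated cells was -1.53 with the beta-actin difference as a covariate (adjusted p = 0.0067). The CD8 fall against unstimulated cells was -0.91 in that fit (adjusted p = 0.689), and the falls against transient cells were -0.63 in CD8 (adjusted p = 0.179) and -0.61 in CD4 cells (adjusted p = 0.901). CD8 transient cells had less Bcl2 than CD8 unstimulated cells by 0.73 ± 0.23 (adjusted p = 0.0284), while the CD4 transient difference of -0.36 did not pass (adjusted p = 0.411). The CD8 transient call against unstimulated cells was lost without any 1 of 3 arrays, namely unstimulated replicate 2 and transient replicates 1 and 3 (adjusted p = 0.0803 to 0.1). The CD8 call between continuous and transient was lost without any 1 of 4 arrays, transient replicates 2 and 3 or continuous replicates 1 and 2 (adjusted p = 0.0569 to 0.145). The difference between the cell types in the continuous against unstimulated change was 0.16 ± 0.35 (adjusted p = 0.792). Direct comparison gave less Bcl2 in CD8 than in CD4 transient cells, by 0.75 ± 0.26 (adjusted p = 0.0464), a call lost without any 1 of 4 arrays (CD8 replicates 1 and 3, CD4 replicates 1 and 2, adjusted p = 0.105 to 0.204). On day 2, Bcl2 was not called in either cell type, at 0.22 in CD8 and -0.29 in CD4 cells with all arrays, and at -1.02 in CD8 cells (adjusted p = 0.0607) and -0.46 in CD4 cells (adjusted p = 0.305) without the third unstimulated arrays.

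**Figure D1:**
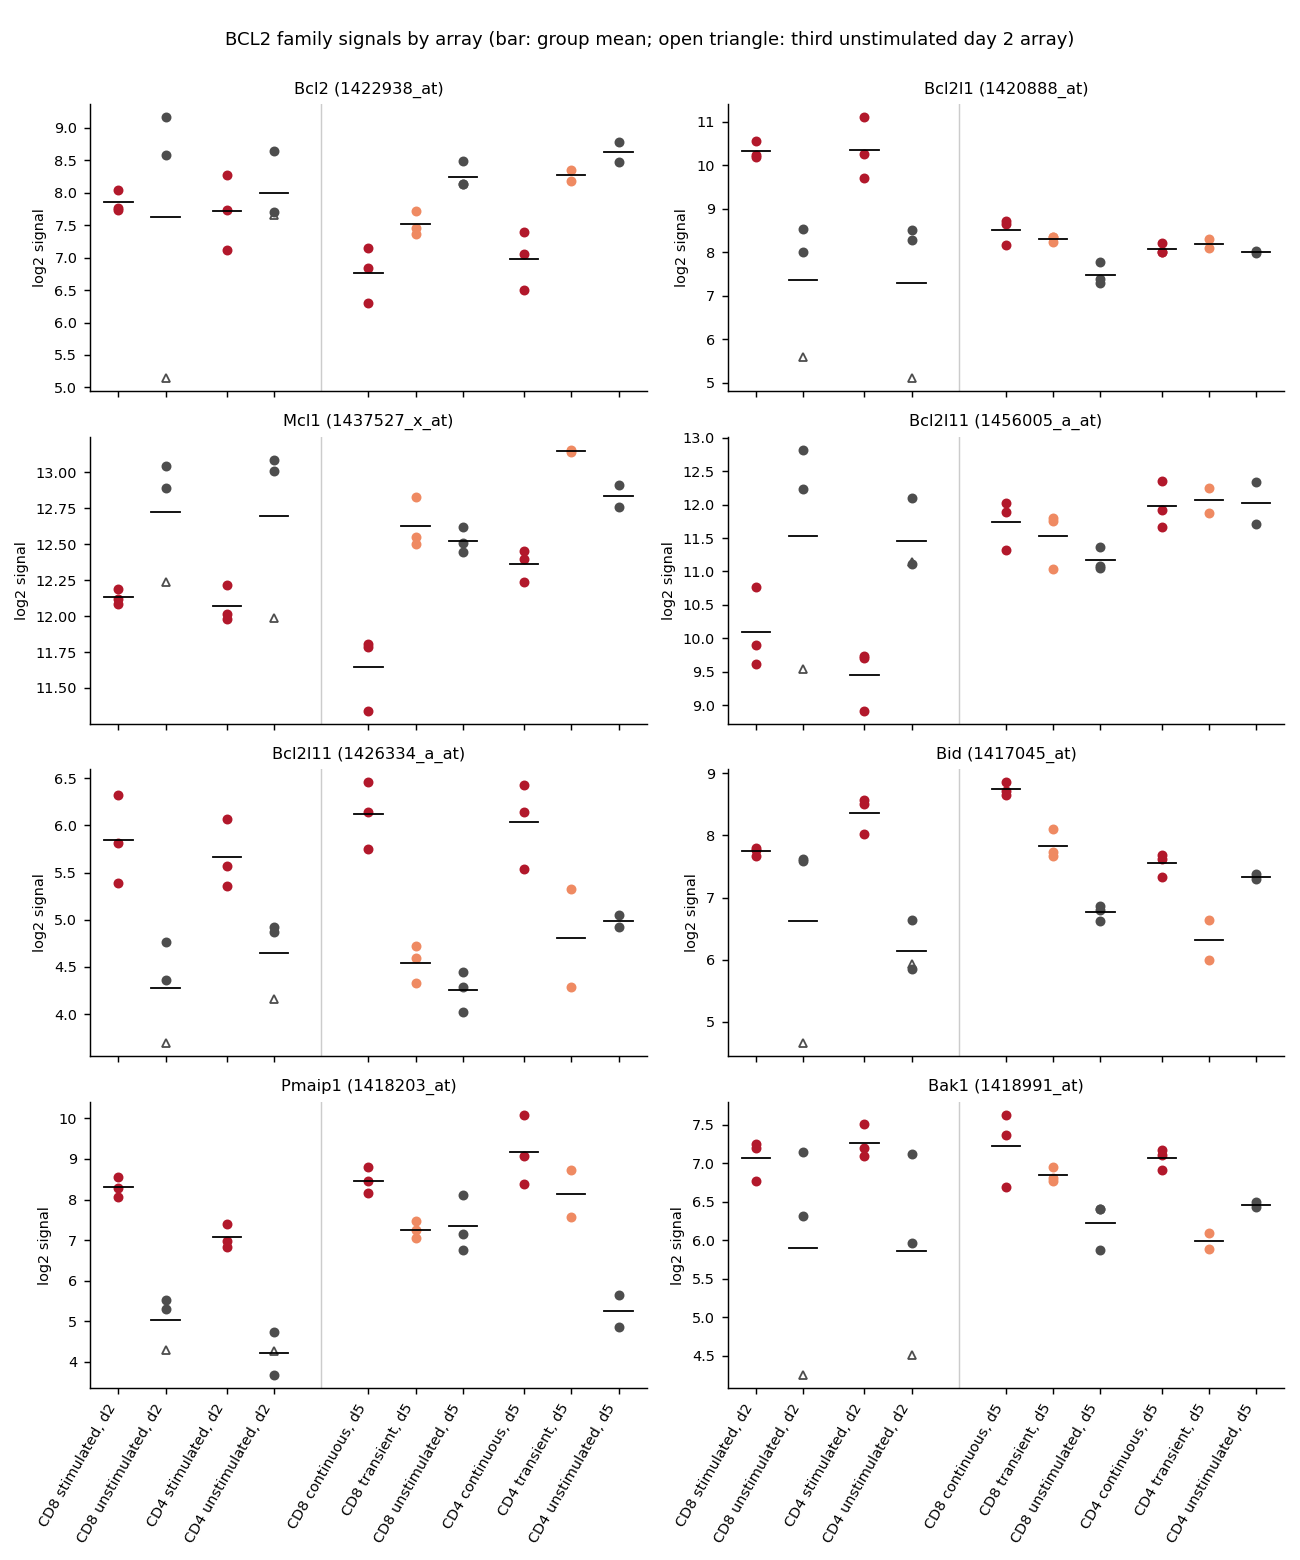
Log2 signals (y axes) of 8 probe sets of the 7 genes in each of 28 arrays, by group on the x axis, with day 2 on the left and day 5 on the right. Points are arrays and bars are group means. On day 5 Bcl2 is lowest in the continuous groups of both cell types, Pmaip1 is high in all stimulated groups against day 2 unstimulated cells, and the open triangles mark the third unstimulated day 2 arrays.

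Bcl2l1, which encodes BCL-XL, was high after 2 days of stimulation. Its probe set 1420888_at read 10.23, 10.20 and 10.57 in CD8 stimulated cells against 8.53, 8.01 and 5.59 in CD8 unstimulated cells on day 2. In CD4 cells it read 10.26, 9.72 and 11.10 when stimulated against 8.29, 8.52 and 5.11 when unstimulated. The groups did not overlap in either cell type, and the lowest unstimulated value was that of the third array. It rose by 3.05 ± 0.88 in CD4 cells (adjusted p = 0.0424), while the CD8 difference was 2.96 ± 0.88 (adjusted p = 0.058). With the beta-actin covariate the CD4 value turned to -1.06 (adjusted p = 0.63) and the CD8 value was 0.48 (adjusted p = 0.797). Without the third unstimulated arrays the changes were 2.07 ± 0.36 in CD8 cells (adjusted p = 0.00307) and 1.96 ± 0.36 in CD4 cells (adjusted p = 0.00172). The CD4 call with all arrays was also lost without any 1 of 5 of its 6 arrays, all but unstimulated replicate 2 (adjusted p = 0.0529 to 0.16), and the CD8 difference passed without unstimulated replicate 1 or 2 (adjusted p = 0.0367 and 0.0478).

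By day 5 the same probe set lay between 7.29 and 8.73 in every group. It read 8.17, 8.65 and 8.73 in CD8 continuous, 8.35, 8.36 and 8.24 in CD8 transient and 7.38, 7.29 and 7.78 in CD8 unstimulated cells. The CD4 groups stood together, at 8.01, 8.22 and 8.02 in continuous, 8.09 and 8.30 in transient and 8.00 and 8.04 in unstimulated cells. Bcl2l1 rose by 1.03 ± 0.16 in CD8 continuous (adjusted p = 0.000115) and by 0.83 ± 0.16 in CD8 transient cells (adjusted p = 0.00118), both against unstimulated cells. The CD4 differences were 0.07 for continuous and 0.18 for transient against unstimulated cells, and neither passed (adjusted p = 0.864 and 0.555). The cell types differed in the continuous against unstimulated change by 0.97 ± 0.23 (CD8 minus CD4, adjusted p = 0.0111). CD8 unstimulated cells were themselves lower than CD4 unstimulated cells, by 0.53 ± 0.17 (adjusted p = 0.0369), a call lost without any 1 of 4 arrays (adjusted p = 0.0885 to 0.157, all but CD8 replicate 3). They had the higher beta-actin difference, and with that covariate none of these 4 Bcl2l1 calls was made, at 0.89 for continuous and 0.72 for transient against unstimulated CD8 cells (adjusted p = 0.537 and 0.526). Of the other 3 Bcl2l1 probe sets, 1426191_a_at rose by 0.44 and 1426050_at fell by 0.33 in CD8 continuous against unstimulated cells (adjusted p = 0.0241 and 0.028), each lost without any 1 of 4 arrays (adjusted p up to 0.0976 and 0.12). In CD8 transient against unstimulated cells 1426050_at fell by 0.33 (adjusted p = 0.0438), a call lost with the replicate number as a block (adjusted p = 0.0562). That call was also lost without any 1 of 5 of the 6 arrays, all but unstimulated replicate 1 (adjusted p = 0.0794 to 0.167). Signals of this set were low, at 3.55 to 3.62 in CD8 transient and 3.64 to 4.10 in CD8 unstimulated cells. The fourth, 1420887_a_at, was not called on day 5.

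Mcl1, the guardian with the shortest-lived protein, was reported in opposite directions by its own probe sets. Of the 6, 1437527_x_at, 1456243_x_at and 1456381_x_at carry the suffix x, which the array maker gives to sets with probes that may match other transcripts. In these, Mcl1 was on day 5 lowest under continuous antigen within each cell type. Probe set 1456381_x_at read 10.09, 10.50 and 10.61 in CD8 continuous, 11.54, 11.63 and 11.88 in CD8 transient and 11.86, 11.90 and 11.88 in CD8 unstimulated cells. In CD4 cells it read 11.50, 11.39 and 11.55 in continuous, 12.58 and 12.60 in transient and 11.80 and 12.10 in unstimulated cells. The continuous group lay below both others without overlap in each cell type. It fell by 1.48 ± 0.14 in CD8 continuous against unstimulated (adjusted p = 1.68e-06) and by 1.28 ± 0.14 against transient cells (adjusted p = 3.18e-05). In CD4 continuous cells it fell by 1.11 ± 0.15 against transient (adjusted p = 8.97e-05) and by 0.46 ± 0.15 against unstimulated cells (adjusted p = 0.0471), the last of which was lost without any 1 of the 5 arrays compared (adjusted p = 0.0568 to 0.36). In CD4 transient against unstimulated cells it rose by 0.64 ± 0.17 (adjusted p = 0.0132), a call lost without unstimulated replicate 1 or either transient array (adjusted p = 0.0556 to 0.134). The other x sets fell in the same 4 comparisons, by 0.47 to 0.98, and their CD4 calls against unstimulated cells were also lost without any 1 of the 5 arrays.

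Probe set 1416881_at moved the other way. It read 10.75, 10.57 and 10.34 in CD8 continuous, 10.41, 10.40 and 10.53 in CD8 transient and 9.57, 9.36 and 9.22 in CD8 unstimulated cells, and it read 11.18, 10.88 and 10.86 in CD4 continuous, 10.16 and 10.31 in CD4 transient and 10.60 and 10.48 in CD4 unstimulated cells. On day 5 it was lowest in CD8 unstimulated and, among CD4 groups, in transient cells, the 2 day 5 groups with the highest beta-actin difference. It rose by 1.17 ± 0.13 in CD8 continuous against unstimulated cells (adjusted p = 8.75e-06) and by 0.74 ± 0.15 in CD4 continuous against transient cells (adjusted p = 0.0014). Where the beta-actin ranges were closest it was not called, at 0.11 ± 0.13 in CD8 continuous against transient (adjusted p = 0.625) and 0.44 ± 0.15 in CD4 continuous against unstimulated cells (adjusted p = 0.0505). Over these same comparisons the fall of 1456381_x_at held at -1.23 in CD8 continuous against transient cells with the beta-actin covariate (adjusted p = 0.000868) and was -0.41 in CD4 continuous against unstimulated cells (adjusted p = 0.174). Against the groups with the high beta-actin difference it was -1.23 in CD8 continuous against unstimulated and -0.80 in CD4 continuous against transient cells (adjusted p = 0.288 and 0.728). A direction for Mcl1 thus depended on the probe set, and transcript variants were not told apart. Probe set 1416880_at fell in CD8 continuous against transient cells by 0.68 ± 0.18 (adjusted p = 0.0111), lost without any 1 of 3 arrays (adjusted p = 0.0514 to 0.0593). In CD4 continuous cells it changed by -0.60 against unstimulated and -0.57 against transient cells (adjusted p = 0.0472 and 0.0389), each lost without any 1 of 4 arrays. Probe set 1448503_at averaged 12.11 in CD8 continuous, 12.22 in CD8 transient and 12.12 in CD8 unstimulated cells, with no call among them. It rose by 0.47 in CD4 transient against unstimulated cells (adjusted p = 0.0405), lost without any 1 of the 4 arrays.

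**Figure D2:**
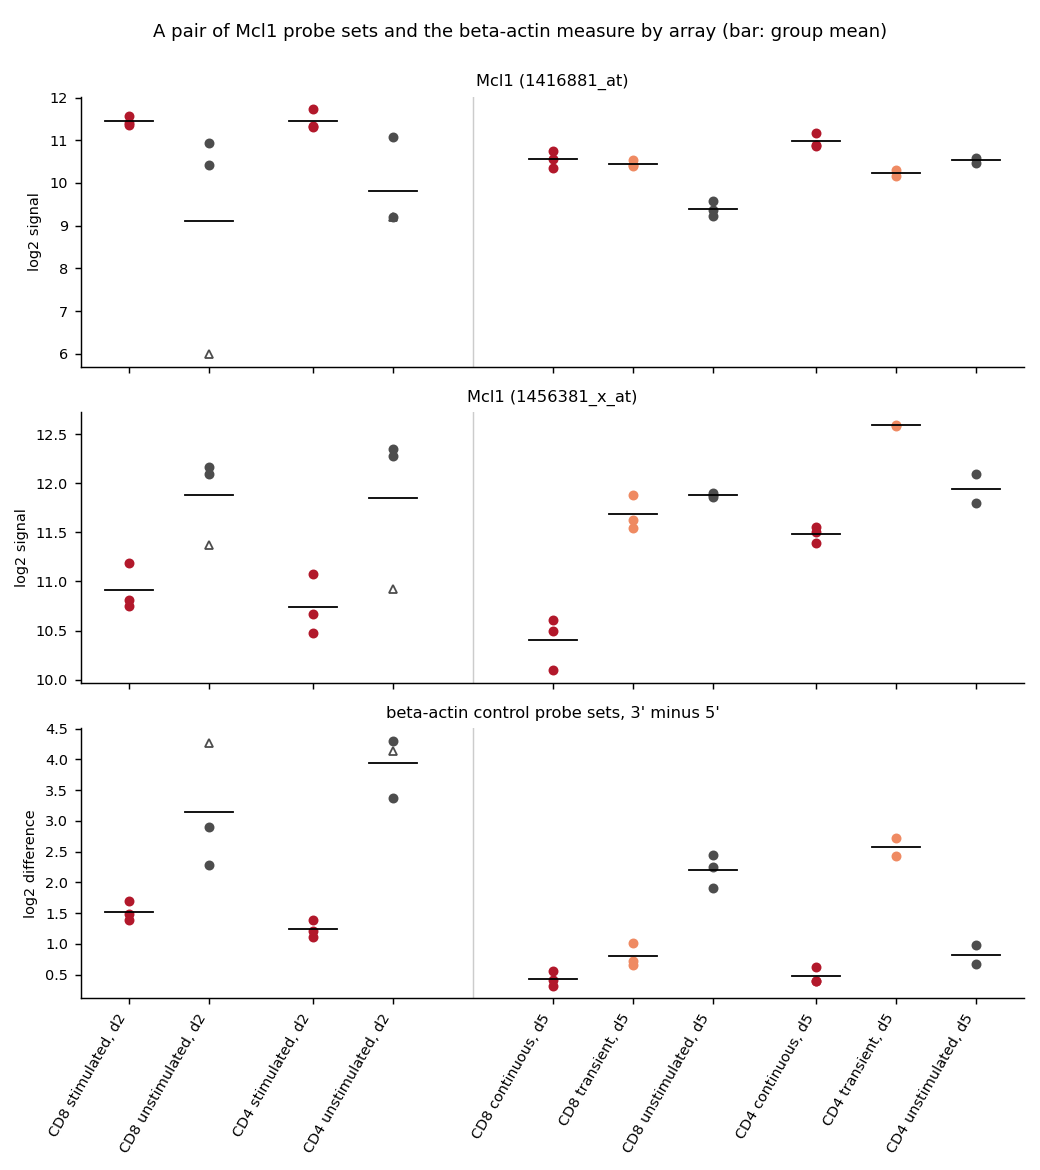
Log2 signals of Mcl1 probe sets 1416881_at and 1456381_x_at, and the log2 beta-actin 3′ minus 5′ difference, in each array by group (x axis), with bars at group means. The first probe set is low where the beta-actin difference is high, in CD8 unstimulated and CD4 transient cells on day 5, while the second is lowest in CD8 continuous cells, at 10.09 to 10.61.

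On day 2 no Mcl1 probe set was called with all arrays. Without the third unstimulated arrays the x sets fell by 0.83 to 1.21 in CD8 stimulated and by 0.98 to 1.57 in CD4 stimulated cells, all 3 called in both cell types (adjusted p up to 0.00903 and 0.00177). In the same fit 1448503_at rose by 0.55 in CD8 and 0.59 in CD4 stimulated cells (adjusted p = 0.0221 and 0.00835), and 1416881_at rose by 1.32 in CD4 cells (adjusted p = 0.03). With the beta-actin covariate, in the fit of all arrays, 1416881_at turned to -4.65 in CD4 stimulated cells and was called lower (adjusted p = 0.0326), against 1.64 without it, and it was -1.45 in CD8 stimulated cells (adjusted p = 0.33). The x sets stayed below 0 in that fit, at -1.60 to -1.15 in CD8 and -2.17 to -1.52 in CD4 stimulated cells, none called (adjusted p = 0.165 to 0.302). The covariate did not overlap between stimulated and unstimulated arrays, so these adjusted values are extrapolated and give no direction. As measured, 1416881_at read 11.30 to 11.73 in CD4 stimulated and 9.19 to 11.07 in CD4 unstimulated arrays.

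Bcl2l11, which encodes BIM, also gave different answers by probe set. Probe set 1456005_a_at was called in no day 5 comparison within a cell type. It read 11.32, 11.90 and 12.02 in CD8 continuous, 11.76, 11.03 and 11.80 in CD8 transient and 11.05, 11.37 and 11.08 in CD8 unstimulated cells, and it read 12.36, 11.92 and 11.67 in CD4 continuous, 12.25 and 11.88 in CD4 transient and 12.34 and 11.71 in CD4 unstimulated cells. All neighbouring groups overlapped, and the CD8 continuous against unstimulated difference was 0.58 ± 0.26 (adjusted p = 0.0807, and 0.0324 at 0.79 without continuous replicate 1). Probe set 1426334_a_at was higher under continuous antigen. It read 5.75, 6.14 and 6.46 in CD8 continuous, 4.33, 4.72 and 4.59 in CD8 transient and 4.45, 4.03 and 4.29 in CD8 unstimulated cells. In CD4 cells it read 6.43, 6.14 and 5.54 in continuous, 5.33 and 4.29 in transient and 5.05 and 4.93 in unstimulated cells. The continuous group lay above the others without overlap in both cell types.

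That set rose by 1.86 ± 0.27 in CD8 continuous against unstimulated (adjusted p = 8.06e-05) and by 1.57 ± 0.27 against transient cells (adjusted p = 0.000777). In CD4 continuous cells it rose by 1.22 ± 0.30 against transient (adjusted p = 0.00613) and by 1.04 ± 0.30 against unstimulated cells (adjusted p = 0.0253). With the beta-actin covariate the change was 1.89 in CD8 continuous against transient (adjusted p = 0.002) and 1.35 in CD4 continuous against unstimulated cells (adjusted p = 0.0182). It was 3.38 in CD8 continuous against unstimulated and 3.03 in CD4 continuous against transient cells, neither called (adjusted p = 0.106 and 0.392). The CD4 call against transient cells was lost without transient replicate 2, at 0.71 (adjusted p = 0.123), and the CD4 call against unstimulated cells without any 1 of 4 of the 5 arrays, all but continuous replicate 3 (adjusted p = 0.0655 to 0.144). The cell types did not differ beyond error in this change, with a CD8 minus CD4 difference of 0.82 ± 0.41 for continuous against unstimulated cells (adjusted p = 0.18).

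Probe set 1456006_at also averaged highest under continuous antigen within each cell type on day 5. It read 6.98, 7.32 and 7.36 in CD8 continuous, 7.02, 6.39 and 6.43 in CD8 transient and 5.69, 6.14 and 5.94 in CD8 unstimulated cells, and 7.50, 7.39 and 6.94 in CD4 continuous, 5.81 and 5.55 in CD4 transient and 6.72 and 6.73 in CD4 unstimulated cells. It rose by 1.29 ± 0.19 in CD8 continuous against unstimulated (adjusted p = 0.000103) and by 1.59 ± 0.22 in CD4 continuous against transient cells (adjusted p = 7.72e-05). It fell by 1.04 ± 0.24 in CD4 transient against unstimulated cells (adjusted p = 0.00604). Its lowest day 5 groups were again CD4 transient and CD8 unstimulated, those of day 5 with the highest beta-actin difference, and with that covariate none of these 3 was called (adjusted p = 0.449 to 0.679). Where the beta-actin ranges were closest, it rose by 0.60 in CD8 continuous against transient cells (adjusted p = 0.033). That call was lost without any 1 of 4 of the 6 arrays (adjusted p = 0.0936 to 0.127). With the covariate that change was 0.61 (adjusted p = 0.123). In CD4 continuous against unstimulated cells it was 0.55, not called (adjusted p = 0.0931). Of the remaining sets, 1435449_at rose in CD8 continuous against unstimulated cells by 1.48 ± 0.32 (adjusted p = 0.00164) and 1435448_at was not called on day 5.

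After 2 days of stimulation the 2 Bcl2l11 sets parted further. Probe set 1456005_a_at read 10.77, 9.62 and 9.89 in CD8 stimulated against 12.23, 12.82 and 9.53 in CD8 unstimulated cells, and 9.73, 9.70 and 8.92 in CD4 stimulated against 11.11, 12.10 and 11.14 in CD4 unstimulated cells. Stimulated arrays were all lower in CD4 cells, and in CD8 cells only the third unstimulated array overlapped them. The difference was -1.43 ± 0.71 in CD8 and -2.00 ± 0.71 in CD4 cells with all arrays, neither called (adjusted p = 0.264 and 0.0941). Without the third unstimulated arrays it fell by 2.43 ± 0.43 in CD8 and by 2.16 ± 0.43 in CD4 cells (adjusted p = 0.00331 and 0.00257). Probe set 1426334_a_at rose by 1.57 ± 0.43 in CD8 stimulated cells with all arrays (adjusted p = 0.0444, lost without any 1 of 5 of the 6 arrays, all but unstimulated replicate 2, adjusted p = 0.0663 to 0.193) and by 1.28 in CD8 and 0.77 in CD4 cells without the third arrays (adjusted p = 0.0117 and 0.0489). It was, with the beta-actin covariate, 0.82 in CD8 and -0.22 in CD4 stimulated cells (adjusted p = 0.438 and 0.856), while 1456005_a_at was called lower in both, at -3.80 and -5.93 (adjusted p = 0.0161 and 0.0114). These adjusted values are extrapolated too, as group and covariate can hardly be told apart on day 2.

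The difference of the BIM and Bcl2 signals within an array is not moved by a constant added to all signals of that array. It does not remove an effect that differs between probe sets, and the part of the beta-actin pattern in it was not tested. Since 1456005_a_at was called in no day 5 comparison within a cell type, its difference is not a result separate from the Bcl2 fall above. Probe set 1456005_a_at minus Bcl2 was 5.02, 5.06 and 4.87 in CD8 continuous, 4.39, 3.31 and 4.35 in CD8 transient and 2.91, 2.89 and 2.95 in CD8 unstimulated cells. It was 4.96, 4.86 and 5.16 in CD4 continuous, 4.07 and 3.52 in CD4 transient and 3.55 and 3.23 in CD4 unstimulated cells. The continuous groups averaged 4.98 ± 0.10 in CD8 and 4.99 ± 0.15 in CD4 cells (SD, n = 3 each) and lay above all other day 5 arrays. On day 2 the same difference was 3.00, 1.88 and 1.85 in CD8 stimulated against 3.64, 3.66 and 4.39 in CD8 unstimulated cells, and 1.99, 1.42 and 1.80 in CD4 stimulated against 3.41, 3.46 and 3.49 in CD4 unstimulated cells, so that it was lower in every stimulated array. Probe set 1426334_a_at minus Bcl2 averaged -0.65 ± 0.09 in CD8 continuous, -2.97 ± 0.09 in CD8 transient and -3.99 ± 0.41 in CD8 unstimulated cells (SD, n = 3 each). In CD4 cells it averaged -0.95 ± 0.03 in continuous (SD, n = 3), -3.46 ± 0.86 in transient and -3.64 ± 0.13 in unstimulated cells (SD, n = 2 each). On day 2 the group averages of this second difference went the other way and were higher in stimulated cells. They were -2.01 ± 0.49 in CD8 stimulated against -3.36 ± 1.65 in CD8 unstimulated cells (SD, n = 3 each). In CD4 cells they were -2.05 ± 0.58 in stimulated against -3.35 ± 0.46 in unstimulated cells (SD, n = 3 each). The third CD8 unstimulated array, at -1.45, lay within the range of the CD8 stimulated arrays. The zero of these differences has no meaning, since probe sets differ in brightness, and no test was made on them.

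**Figure D3:**
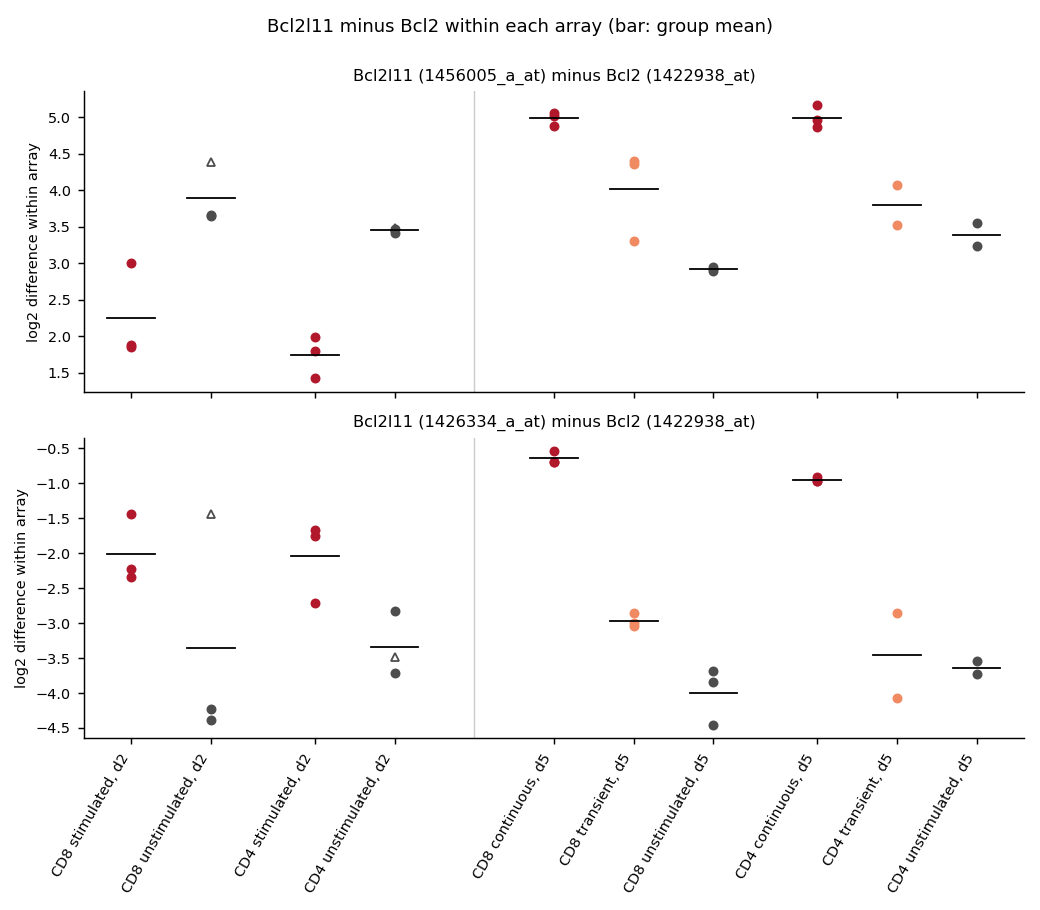
Log2 signal of each of a pair of Bcl2l11 probe sets minus that of Bcl2 within each array (y axes), by group (x axis), with bars at group means. Both differences are highest in the continuous groups of day 5, where the upper one is 4.86 to 5.16, and the upper one is lowest in the stimulated groups of day 2.

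Bid, whose protein is cleaved by caspase 8 to link death receptors to mitochondria, was highest in CD8 continuous cells. Probe set 1417045_at read 8.71, 8.85 and 8.66 in CD8 continuous, 7.67, 7.73 and 8.10 in CD8 transient and 6.80, 6.86 and 6.63 in CD8 unstimulated cells. The 3 CD8 groups did not overlap. In CD4 cells it read 7.69, 7.63 and 7.34 in continuous, 6.64 and 5.99 in transient and 7.29 and 7.37 in unstimulated cells. Bid rose by 1.98 ± 0.16 in CD8 continuous against unstimulated (adjusted p = 6.94e-07), by 0.91 ± 0.16 in CD8 continuous against transient (adjusted p = 0.00113) and by 1.07 ± 0.16 in CD8 transient against unstimulated cells (adjusted p = 0.000261). In CD4 cells it rose by 1.24 ± 0.18 in continuous against transient (adjusted p = 0.000164), fell by 1.02 ± 0.20 in transient against unstimulated (adjusted p = 0.00262) and differed by 0.22 ± 0.18 between continuous and unstimulated cells (adjusted p = 0.489).

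The cell types differed in both Bid changes against unstimulated cells, by 1.76 ± 0.25 for continuous (adjusted p = 0.000356) and by 2.09 ± 0.26 for transient cells (CD8 minus CD4, adjusted p = 3.06e-05). Compared directly, CD8 continuous cells had more Bid than CD4 continuous cells, by 1.19 ± 0.16 (adjusted p = 0.000618), and with the beta-actin covariate by 1.21 (adjusted p = 0.00086). The CD8 rise between continuous and transient was 1.03 with that covariate (adjusted p = 0.00491), while that between continuous and unstimulated was 2.56 and the cell type difference for it 2.23 (adjusted p = 0.0683 and 0.0715). CD4 transient and CD8 unstimulated cells, again the lowest of their cell type on day 5, had the high beta-actin differences. The second Bid set, 1448560_at, rose by 0.49 ± 0.13 in CD8 continuous against unstimulated and by 0.57 ± 0.13 against transient cells (adjusted p = 0.00756 and 0.00494), and was not called within CD4 cells. On day 2, 1417045_at read 7.77, 7.67 and 7.79 in CD8 stimulated against 7.59, 7.62 and 4.66 in CD8 unstimulated cells, and 8.57, 8.03 and 8.51 in CD4 stimulated against 5.85, 6.63 and 5.93 in CD4 unstimulated cells. It rose by 2.23 ± 0.65 in CD4 cells (adjusted p = 0.0454, lost without any 1 of the 6 arrays, adjusted p = 0.0503 to 0.15) and by 2.12 ± 0.25 once the third unstimulated arrays were dropped (adjusted p = 0.000199). In the fit of all arrays with the beta-actin covariate the CD4 value turned to -1.65 (adjusted p = 0.212). Without the third arrays CD8 cells differed by 0.14 (adjusted p = 0.69), and the CD8 minus CD4 difference of the response was -1.99 ± 0.35 (adjusted p = 0.0328). With all arrays that difference was -1.11 ± 0.93 (adjusted p = 1).

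Pmaip1, which encodes NOXA, was higher in every stimulated array than in the day 2 unstimulated arrays. Probe set 1418203_at read 8.28, 8.06 and 8.55 in CD8 stimulated against 5.30, 5.52 and 4.29 in CD8 unstimulated cells, and 6.84, 7.39 and 6.97 in CD4 stimulated against 3.66, 4.72 and 4.26 in CD4 unstimulated cells. The groups were more than a full log2 unit apart in both cell types. Pmaip1 rose by 3.26 ± 0.44 in CD8 (adjusted p = 0.000781) and by 2.85 ± 0.44 in CD4 cells (adjusted p = 0.00163). Without the third unstimulated arrays the rises were 2.89 and 2.87 (adjusted p = 0.000282 and 0.000141). With the beta-actin covariate they were 2.27 in CD8 (adjusted p = 0.0425) and 1.20 in CD4 cells (adjusted p = 0.314).

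On day 5 Pmaip1 read 10.09, 8.37 and 9.08 in CD4 continuous, 7.56 and 8.73 in CD4 transient and 5.64 and 4.85 in CD4 unstimulated cells. In CD8 cells it read 8.80, 8.45 and 8.15 in continuous, 7.47, 7.05 and 7.24 in transient and 8.12, 7.16 and 6.75 in unstimulated cells. The CD4 unstimulated arrays lay below all other day 5 arrays. The CD8 continuous arrays lay above the other CD8 arrays by a small margin, and the CD4 continuous and transient groups overlapped. Pmaip1 rose in CD4 cells by 3.94 ± 0.49 in continuous (adjusted p = 0.000104) and by 2.90 ± 0.54 in transient against unstimulated cells (adjusted p = 0.00162). The continuous rise was 3.68 with the beta-actin covariate (adjusted p = 0.00154) and the transient value 4.14 (adjusted p = 0.418), which stood beside the B cell markers given above, whose part was not tested. In CD8 cells the difference was 1.12 ± 0.44 in continuous (adjusted p = 0.0493, lost without any 1 of 5 of the 6 arrays, all but unstimulated replicate 1, adjusted p = 0.0514 to 0.184) and -0.09 ± 0.44 in transient against unstimulated cells (adjusted p = 0.898). The cell types differed by -2.81 ± 0.66 for continuous (adjusted p = 0.00895, and 0.0525 at -2.42 without CD4 unstimulated replicate 2) and by -2.99 ± 0.69 for transient against unstimulated cells (CD8 minus CD4, adjusted p = 0.00386). CD8 unstimulated cells had more Pmaip1 than CD4 unstimulated cells, by 2.10 ± 0.49 (adjusted p = 0.0059, and 0.0794 at 1.70 without CD4 unstimulated replicate 2). The difference between continuous and transient cells was 1.21 ± 0.44 in CD8 (adjusted p = 0.0551) and 1.04 ± 0.49 in CD4 cells (adjusted p = 0.122, and 0.0376 at 1.44 without CD4 continuous replicate 2).

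Bak1 encodes the effector BAK. Probe set 1418991_at read 7.63, 7.37 and 6.69 in CD8 continuous, 6.81, 6.95 and 6.77 in CD8 transient and 5.88, 6.40 and 6.41 in CD8 unstimulated cells. It read 6.91, 7.11 and 7.17 in CD4 continuous, 6.10 and 5.89 in CD4 transient and 6.50 and 6.43 in CD4 unstimulated cells. It rose by 1.00 ± 0.21 in CD8 continuous against unstimulated (adjusted p = 0.00126) and by 1.07 ± 0.23 in CD4 continuous against transient cells (adjusted p = 0.00247). These were again comparisons with groups of high beta-actin difference, and with the covariate the values were 0.16 and 0.07 (adjusted p = 0.954 and 0.989). Where the ranges were closest it was not called, at 0.39 ± 0.21 in CD8 continuous against transient (adjusted p = 0.197, and 0.00867 at 0.66 without continuous replicate 3) and 0.60 ± 0.23 in CD4 continuous against unstimulated cells (adjusted p = 0.085). The rise of 0.61 ± 0.21 in CD8 transient against unstimulated cells (adjusted p = 0.0367) was lost with the replicate number as a block (adjusted p = 0.0656) and without any 1 of 4 arrays (adjusted p = 0.0667 to 0.141, unstimulated replicate 1 and all transient replicates). The other Bak1 set, 1425716_s_at, was called in no comparison. On day 2 neither set was called, with or without the third unstimulated arrays.

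**Figure D4:**
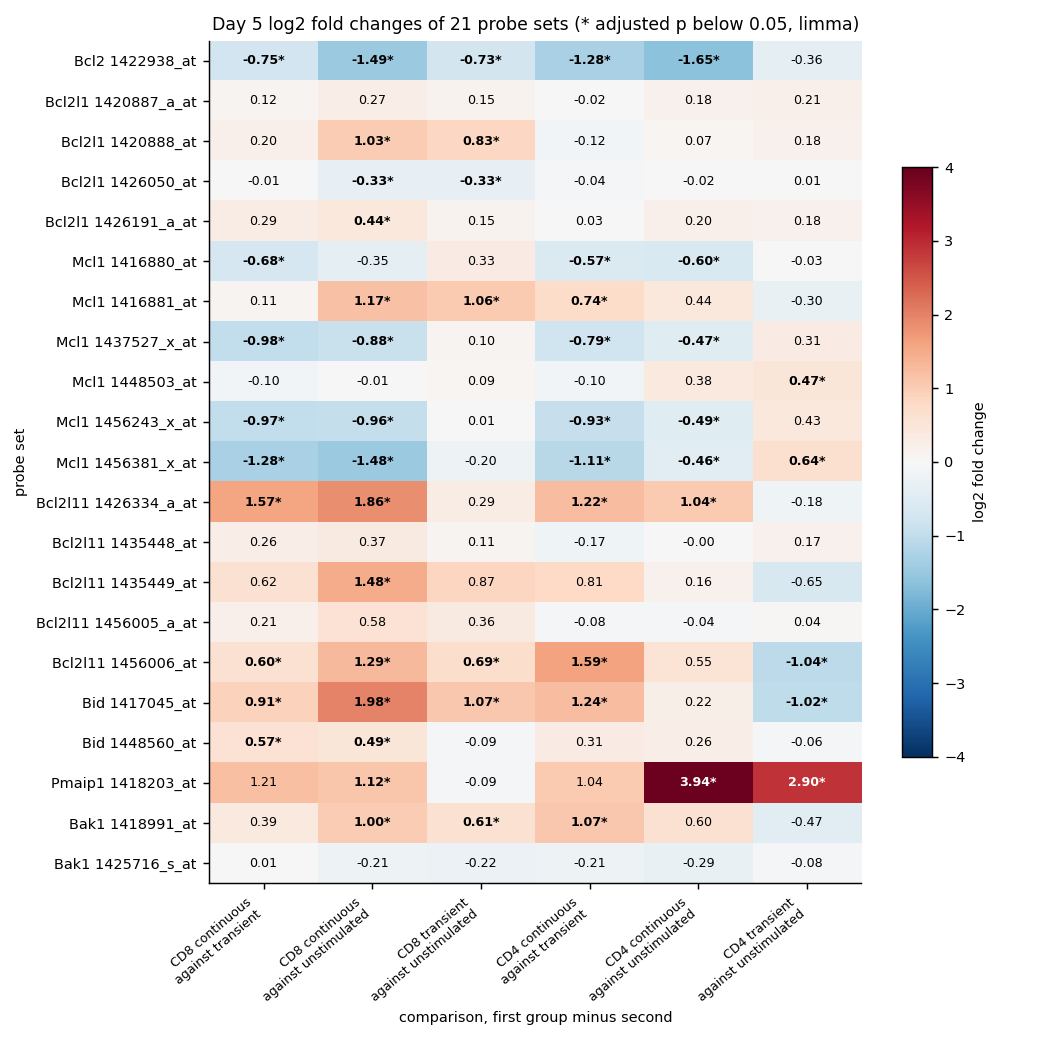
Log2 fold changes (colour and printed value) of the 21 probe sets (rows) in the 6 day 5 comparisons within a cell type (columns, first group minus second). Asterisks mark adjusted p below 0.05. Bcl2 and the x sets of Mcl1 fell with continuous antigen in both cell types, while Bcl2l11 1426334_a_at rose in both. Bid 1417045_at rose with continuous antigen in CD8 cells against transient and unstimulated cells, and in CD4 cells against transient cells only.

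The members' counts were read against the share of all probe sets called. In CD8 continuous against unstimulated cells 10 of the 21 were called higher (22% of all probe sets) and 5 lower (24%), which together compares with 46% of all. In CD8 continuous against transient cells 4 of the 21 were called higher (14% of all probe sets) and 5 lower (12.5%), which together compares with 26.5% of all. In CD8 transient against unstimulated cells 5 of the 21 were called higher (16% of all probe sets) and 2 lower (14.2%), which together compares with 30.3% of all. In CD4 continuous against unstimulated cells 2 of the 21 were called higher (9.71% of all probe sets) and 5 lower (10.4%), which together compares with 20.1% of all. In CD4 continuous against transient cells 5 of the 21 were called higher (18.2% of all probe sets) and 5 lower (15.2%), which together compares with 33.4% of all. In CD4 transient against unstimulated cells 3 of the 21 were called higher (9.12% of all probe sets) and 2 lower (13.7%), which together compares with 22.8% of all. The comparisons of a cell type share groups, so their counts are not independent of one another. In CD8 continuous against unstimulated cells the members' median was 0.44, against -0.11 over all probe sets, and 71.4% of the members were called. The 21 probe sets stand for 7 genes, so those of the same gene are repeated measures. With the beta-actin covariate 0 members were called in this comparison. In CD8 transient against unstimulated cells 33.3% of members were called, near the background.

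For the CD8 minus CD4 difference of continuous against unstimulated cells, 3 of the 21 were called higher (11.5% of all probe sets) and 2 lower (7.63%), which together compares with 19.1% of all. For that of continuous against transient cells, 0 of the 21 were called higher (7.36% of all probe sets) and 2 lower (10.2%), which together compares with 17.6% of all. For that of transient against unstimulated cells, 5 of the 21 were called higher (19% of all probe sets) and 2 lower (17.5%), which together compares with 36.5% of all. Comparing CD8 with CD4 continuous cells, 2 of the 21 were called higher (6% of all probe sets) and 3 lower (4.26%), which together compares with 10.3% of all. Comparing CD8 with CD4 transient cells, 3 of the 21 were called higher (15.3% of all probe sets) and 5 lower (11.1%), which together compares with 26.4% of all. Comparing CD8 with CD4 unstimulated cells, 1 of the 21 were called higher (12.9% of all probe sets) and 7 lower (14.8%), which together compares with 27.7% of all. Among these, Bid 1417045_at was higher in CD8 continuous and CD8 transient cells, and Mcl1 1456381_x_at was lower in both (by 1.08 in continuous, adjusted p = 0.00031, and by 0.91 in transient cells, adjusted p = 0.00061). With the beta-actin covariate both continuous calls held (adjusted p = 0.00086 for Bid and 0.000601 for Mcl1). The transient differences were then 2.10 and -0.65, neither called (adjusted p = 0.214 and 0.687). The CD4 transient arrays also had the B cell markers given above.

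In CD8 stimulated against unstimulated cells on day 2, with all arrays, 2 of the 21 were called higher (7.21% of all probe sets) and 0 lower (0.736%), which together compares with 7.94% of all. Without the third unstimulated arrays, 4 of the 21 were called higher (15.7% of all probe sets) and 5 lower (19.1%), which together compares with 34.8% of all. In CD4 stimulated against unstimulated cells on day 2, with all arrays, 3 of the 21 were called higher (10.2% of all probe sets) and 0 lower (0.658%), which together compares with 10.9% of all. Without the third unstimulated arrays, 7 of the 21 were called higher (24.6% of all probe sets) and 6 lower (37.8%), which together compares with 62.3% of all. For the CD8 minus CD4 difference of the response with all arrays, limma called 0 members and 0% of all probe sets, with 0 members at an unadjusted p below 0.05, and without the third arrays 0 of the 21 were called higher (0.604% of all probe sets) and 1 lower (1.36%), which together compares with 1.97% of all. Comparing CD8 with CD4 stimulated cells, limma called 0 members with all arrays (0.00981% of all) and 0 without the third unstimulated arrays (0.54%, 0.314% higher and 0.226% lower), with 1 and 2 members at an unadjusted p below 0.05. Comparing CD8 with CD4 unstimulated cells, limma called 0 members with all arrays (0% of all, and 0 members at an unadjusted p below 0.05), and without the third arrays 2 of the 21 were called higher (6.37% of all probe sets) and 1 lower (6.74%), which together compares with 13.1% of all. Scaling moved the day 2 split. In CD4 stimulated cells 2080 probe sets were higher and 134 lower as deposited, 3804 and 3515 after median centring, and 2400 and 2305 after quantile normalization. The CD8 split was 1469 higher and 150 lower as deposited, 3168 and 2791 after median centring, and 2103 and 1931 after quantile normalization. The median over all probe sets was 0.14, -0.32 and -0.14 under these 3 scalings in CD8 cells and 0.13, -0.29 and -0.15 in CD4 cells.

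**Figure D5:**
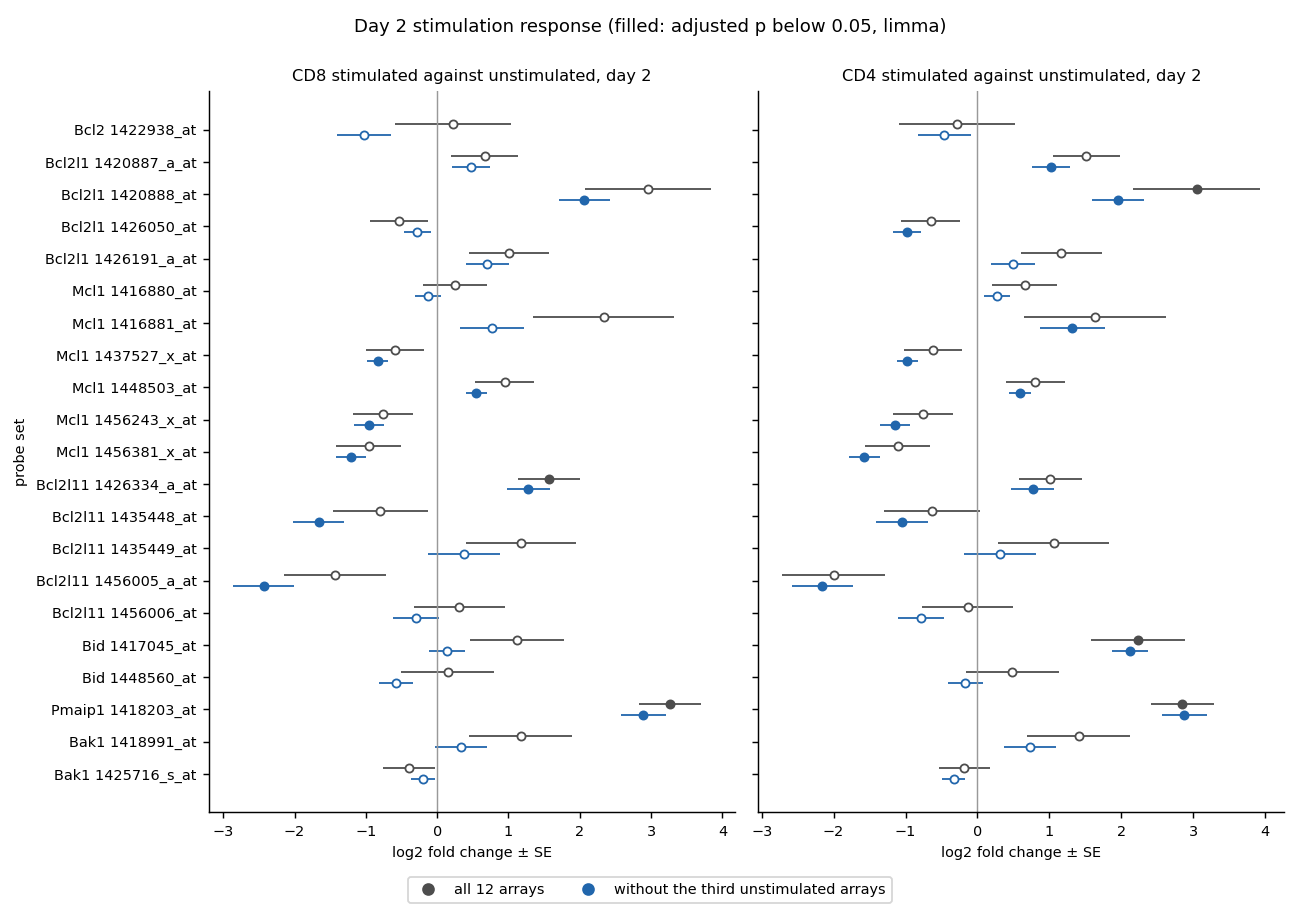
Log2 fold changes with SE (x axes) of the 21 probe sets (rows) in stimulated against unstimulated cells on day 2, CD8 on the left and CD4 on the right. Grey points use all 12 arrays and blue points leave out the third unstimulated arrays, and filled points are called. Pmaip1 is filled in both fits and both cell types, and the x sets of Mcl1 lie below 0 in both fits but are filled only without the third unstimulated arrays.

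Other genes of the pathway were taken from 4 lists, with 1 probe set per gene. Values with the beta-actin covariate are not given for these genes. Their changes against CD8 unstimulated or CD4 transient cells thus carry the limit stated above for the members, as those groups had the high beta-actin differences. Of 11 measured further BCL2 family genes, 1 rose and 4 fell in CD8 continuous against unstimulated cells, where 46.9% of all genes were called, and the median was -0.04 against -0.12 over all genes. Bbc3, which encodes the BH3-only protein PUMA, fell by 1.20 ± 0.25 there (adjusted p = 0.00129) and by 1.11 ± 0.28 in CD4 continuous against transient cells (adjusted p = 0.00637). Bad, another BH3-only gene, rose by 0.60 ± 0.16 in CD4 continuous against unstimulated cells (adjusted p = 0.0161), the only one of the 11 called there.

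Of 14 measured caspase and apoptosome genes, 2 rose and 7 fell in CD8 continuous against unstimulated cells (46.9% of all genes called), and 3 rose and 1 fell in CD4 continuous against unstimulated cells (20.5% of all genes called). Birc5, which encodes survivin, a protein of dividing cells, rose by 3.61 ± 0.50 in CD8 (adjusted p = 5.61e-05) and by 5.14 ± 0.56 in CD4 cells (adjusted p = 4.14e-05). Apaf1, the scaffold of the apoptosome, rose by 1.02 ± 0.22 in CD4 continuous against unstimulated cells (adjusted p = 0.00422), and Casp9, the caspase it activates, fell by 1.46 ± 0.20 in CD8 continuous against unstimulated cells (adjusted p = 4.86e-05).

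Of 10 measured death receptor genes, 3 rose and 2 fell in CD8 continuous and none rose and 2 fell in CD4 continuous against unstimulated cells, near the 46.9% and 20.5% of all genes called. Fasl, the ligand of the death receptor FAS, rose by 3.71 ± 0.50 in CD8 continuous cells (adjusted p = 4.44e-05). Cflar, which encodes FLIP, an inhibitor of caspase 8, fell by 1.59 ± 0.13 in CD8 and by 1.01 ± 0.14 in CD4 continuous against unstimulated cells (adjusted p = 5.35e-07 and 0.000255).

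Of 18 measured survival signals and regulators of the members, 6 rose and 6 fell in CD8 continuous and 3 rose and 6 fell in CD4 continuous against unstimulated cells, where 46.9% and 20.5% of all genes were called. Il7r, the receptor chain for IL7, fell by 3.55 ± 0.69 in CD8 (adjusted p = 0.000832) and by 4.12 ± 0.77 in CD4 cells (adjusted p = 0.00197). Foxo3, a transcription factor of the FOXO family, fell by 2.00 ± 0.22 in CD8 continuous against unstimulated (adjusted p = 6.79e-06) and by 1.36 ± 0.22 against transient cells (adjusted p = 0.000491). Il2ra, the inducible IL2 receptor chain, rose by 2.58 ± 0.39 in CD8 and by 1.87 ± 0.44 in CD4 continuous against unstimulated cells (adjusted p = 0.000115 and 0.00796).

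By Pearson correlation over the 16 day 5 arrays, among 3148 genes with an SD of at least 0.5, the 2 genes most like Bcl2 were Rdh5 and Foxj2 (r = 0.94 and 0.93). Those most like Pmaip1 were Anxa4 and Incenp (0.92 and 0.91), most like Bid Prmt5 and Srfbp1 (0.96 and 0.95) and most like Bak1 Emc8 and F2rl3 (0.97 and 0.96). Ranbp10 and Ogt were most like Mcl1 (0.95 and 0.93, for 1437527_x_at). Rspry1 and Rnf19a were most like Bcl2l11 (0.85 and 0.84, for 1456005_a_at), and Camk2d and Chpt1 most like Bcl2l1 (0.84 and 0.82, for 1420888_at). These arrays share 6 groups and the beta-actin pattern, and the values only describe likeness.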

How the data were processed

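The values are log2 signals per probe set of Affymetrix Mouse 430A2 arrays, made by the authors with RMA, per the submitters' processing notes, in a version not given in the sources used here. RNA was amplified before labelling, per the labels. The deposited table held 22690 probe sets for 28 arrays, and no value was normalized again. Probe sets were named from the platform annotation, and 64 control, 691 several-symbol and 1555 unnamed probe sets were left out of the tests. With limma 3.58.1 (R 4.3.3) a mean per group was fitted separately for day 2 and day 5, with moderated variances (8 residual degrees of freedom on day 2, 10 on day 5), Benjamini-Hochberg adjustment over 20380 probe sets and a threshold of 0.05. The code was tested on simulated data. The fits used the probe set and not the gene as unit, so that members could be followed one by one.

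Members, gene lists and tests were chosen with earlier results of these data known. Named genes were all members' probe sets, up to 3 called genes per list and comparison with the largest change (1 probe set per gene, that with the highest mean), and for each member the 2 genes with the highest correlation over day 5 arrays among those with an SD of at least 0.5. Replicate numbers are shared between groups. Deviations of same-numbered arrays correlated above 0.1 in all 3 pairs only between CD8 transient and unstimulated cells (0.475, 0.298 and 0.16). The block is given there. CD4 unstimulated cells of day 5 had 2 arrays, and both pairs also passed 0.1 with CD4 continuous cells (0.383 and 0.245). Both passed it with CD8 unstimulated cells too (0.394 and 0.321). The block left 4 of the 7 calls in CD4 continuous against unstimulated cells, and the Mcl1 x sets were lost (adjusted p = 0.0611 to 0.0725). It was set within each cell type, so it did not pair CD8 with CD4 arrays. Pairing rests on this check and on the shared numbers. The number of arrays limits the precision. Alternatives were other scaling, filters, array sets and thresholds.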

Additional observations from a re-analysis of the deposited data

Results flagged for a closer look

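The following day 5 changes differed between the cell types by limma's test of the difference itself (CD8 change minus CD4 change, log2, adjusted p below 0.05 with the Benjamini-Hochberg method). For transient against unstimulated cells the difference was 1.36 for Mcl1 1416881_at, 2.09 for Bid 1417045_at, -2.99 for Pmaip1 1418203_at, 1.08 for Bak1 1418991_at, 1.51 for Bcl2l11 1435449_at, 1.74 for Bcl2l11 1456006_at and -0.84 for Mcl1 1456381_x_at. For continuous against unstimulated cells the difference was 0.73 for Mcl1 1416881_at, 1.76 for Bid 1417045_at, -2.81 for Pmaip1 1418203_at, 0.97 for Bcl2l1 1420888_at and -1.02 for Mcl1 1456381_x_at. For continuous against transient cells the difference was -0.63 for Mcl1 1416881_at and -0.99 for Bcl2l11 1456006_at. With the beta-actin 3′ minus 5′ difference as a covariate none of these 14 was called. The high beta-actin differences lay in CD4 transient and CD8 unstimulated cells. In the transient against unstimulated change 8 of 9 B cell markers differed between the cell types (8 lower), where 37.1% of all genes were called. The part of either in these differences was not tested further.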

How the results depend on the processing

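Of 357 member values, 93 were called, and 4 of these were called under every alternative run. Few arrays per group and the 2 arrays that stand apart on day 2 limit the precision, and limits of signal over background were not assessed because the deposited signals hold no background values. Sign changes where neither value was called are not listed. The causes of the changes below were not tested. The counts of called members were, as reported, 3 for CD4 stimulated cells, 2 for CD8 stimulated cells, 0 for the day 2 response difference, 0 for CD8 against CD4 unstimulated, day 2, 0 for CD8 against CD4 stimulated, day 2, 5 for CD4 transient against unstimulated, 7 for CD4 continuous against unstimulated, 10 for CD4 continuous against transient, 7 for CD8 transient against unstimulated, 15 for CD8 continuous against unstimulated, 9 for CD8 continuous against transient, 7 for the CD8 minus CD4 difference of transient against unstimulated, 5 for the CD8 minus CD4 difference of continuous against unstimulated, 2 for the CD8 minus CD4 difference of continuous against transient, 8 for CD8 against CD4 unstimulated, 8 for CD8 against CD4 transient, 5 for CD8 against CD4 continuous. With the beta-actin covariate, added after the data were seen, the count was 0 for CD4 transient against unstimulated, CD4 continuous against transient, CD8 transient against unstimulated, CD8 continuous against unstimulated, the CD8 minus CD4 difference of transient against unstimulated, the CD8 minus CD4 difference of continuous against unstimulated, the CD8 minus CD4 difference of continuous against transient, CD8 against CD4 unstimulated, CD8 against CD4 transient, 3 for CD4 continuous against unstimulated. With the mean of the probe sets per gene (of 7 genes), the count was 0 for the CD8 minus CD4 difference of continuous against transient, 1 for CD4 stimulated cells, CD8 stimulated cells, 2 for CD4 transient against unstimulated, CD4 continuous against unstimulated, CD8 transient against unstimulated, the CD8 minus CD4 difference of transient against unstimulated, the CD8 minus CD4 difference of continuous against unstimulated, CD8 against CD4 continuous, 3 for CD8 against CD4 unstimulated, CD8 against CD4 transient, 4 for CD4 continuous against transient, CD8 continuous against transient, 5 for CD8 continuous against unstimulated. With all 28 arrays in 1 fit, the count was 0 for CD4 continuous against transient, CD8 transient against unstimulated, the CD8 minus CD4 difference of continuous against unstimulated, the CD8 minus CD4 difference of continuous against transient, CD8 against CD4 transient, CD8 against CD4 continuous, 1 for CD4 transient against unstimulated, CD4 continuous against unstimulated, the CD8 minus CD4 difference of transient against unstimulated, CD8 against CD4 unstimulated, 3 for CD8 continuous against transient, 5 for CD8 continuous against unstimulated, 7 for CD8 stimulated cells, 10 for CD4 stimulated cells. With 1 probe set per gene (of 7 genes), the count was 0 for the CD8 minus CD4 difference of continuous against transient, 1 for CD8 stimulated cells, 2 for CD4 transient against unstimulated, CD8 against CD4 continuous, 3 for CD4 continuous against unstimulated, CD8 continuous against transient, the CD8 minus CD4 difference of transient against unstimulated, the CD8 minus CD4 difference of continuous against unstimulated, 4 for CD4 continuous against transient, CD8 transient against unstimulated, CD8 against CD4 unstimulated, CD8 against CD4 transient, 6 for CD8 continuous against unstimulated. Requiring a change of at least 2-fold, the count was 0 for the CD8 minus CD4 difference of continuous against transient, 1 for CD8 against CD4 transient, 2 for CD8 transient against unstimulated, CD8 continuous against transient, CD8 against CD4 continuous, 3 for CD4 transient against unstimulated, CD4 continuous against unstimulated, the CD8 minus CD4 difference of continuous against unstimulated, CD8 against CD4 unstimulated, 6 for CD4 continuous against transient. At an adjusted p below 0.01, the count was 0 for the CD8 minus CD4 difference of continuous against transient, 1 for CD4 stimulated cells, CD8 stimulated cells, 2 for CD4 continuous against unstimulated, CD8 against CD4 unstimulated, 3 for CD4 transient against unstimulated, CD8 transient against unstimulated, the CD8 minus CD4 difference of continuous against unstimulated, 4 for CD8 against CD4 transient. With array weights, the count was 2 for CD8 against CD4 stimulated, day 2, 7 for CD4 stimulated cells, 9 for CD8 against CD4 continuous, 11 for CD8 stimulated cells. After quantile normalization, the count was 1 for the CD8 minus CD4 difference of continuous against transient, 5 for CD8 against CD4 unstimulated, 9 for CD4 stimulated cells, 10 for CD8 stimulated cells. Without replicate 3 of unstimulated day 2 cells in both cell types, the count was 1 for the day 2 response difference, 3 for CD8 against CD4 unstimulated, day 2, 9 for CD8 stimulated cells, 13 for CD4 stimulated cells. With only the groups compared in the fit, the count was 1 for CD8 stimulated cells, CD8 against CD4 stimulated, day 2, the CD8 minus CD4 difference of continuous against transient, 3 for CD4 transient against unstimulated. With the replicate number as a block (pairing), the count was 1 for the CD8 minus CD4 difference of continuous against transient, 2 for CD8 against CD4 continuous, 4 for CD4 continuous against unstimulated, 5 for CD8 against CD4 transient. After median centring, the count was 8 for CD4 stimulated cells, CD8 stimulated cells. Leaving out 1 array at a time gave 1 to 6 for CD4 stimulated cells, 1 to 4 for CD8 stimulated cells, 0 to 0 for the day 2 response difference, 0 to 0 for CD8 against CD4 unstimulated, day 2, 0 to 0 for CD8 against CD4 stimulated, day 2, 3 to 4 for CD4 transient against unstimulated, 2 to 6 for CD4 continuous against unstimulated, 9 to 10 for CD4 continuous against transient, 3 to 6 for CD8 transient against unstimulated, 12 to 15 for CD8 continuous against unstimulated, 6 to 9 for CD8 continuous against transient, 5 to 8 for the CD8 minus CD4 difference of transient against unstimulated, 4 to 6 for the CD8 minus CD4 difference of continuous against unstimulated, 0 to 2 for the CD8 minus CD4 difference of continuous against transient, 3 to 6 for CD8 against CD4 unstimulated, 4 to 6 for CD8 against CD4 transient, 4 to 6 for CD8 against CD4 continuous. Values that changed sign with the beta-actin covariate were -4.65 for Mcl1 1416881_at (adjusted p = 0.0326), -1.65 for Bid 1417045_at and -1.06 for Bcl2l1 1420888_at in CD4 stimulated cells, -0.054 for Bak1 1418991_at in CD8 transient and -0.14 for Pmaip1 in CD8 continuous against unstimulated cells, -0.42 for Bak1 1418991_at in the CD8 minus CD4 difference of transient against unstimulated, and 0.011 for Mcl1 1448503_at in CD8 against CD4 transient cells. Of the 93 calls, 15 held with that covariate, 72 were lost and 6 changed sign. On day 2 the covariate did not overlap between stimulated and unstimulated arrays, so its values for stimulated cells are extrapolated. In CD8 stimulated cells, Mcl1 1416880_at was -0.75 after quantile normalization and Bcl2 -1.06 with array weights, and the mean of the Bcl2l11 probe sets was 0.67 in CD4 continuous against transient cells. The replicate block lost 21 of the 93 calls and added 2. CD4 transient and unstimulated arrays of the same number correlated at -0.16, and with their numbers crossed the count was 4, against 5 as reported.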
